A study of Mus musculus with 8 samples.

Results

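Ash2l and the genes of the COMPASS complexes, which methylate lysine 4 of histone H3 (H3K4), were followed across control and knockdown (KD) mouse embryonic stem cells (ESCs). The genes were picked by their names, with earlier results of these data known. They were 10 of the 55335 genes in the count table, and all 10 were among the 16504 genes with enough counts to be tested. Poly(A) RNA was sequenced from E14, a mouse ESC line, in 8 libraries, 2 biological duplicates for each of 4 groups. The cells carried a lentiviral shRNA and were grown on gelatin with LIF and inhibitors that hold ESCs in the undifferentiated state. The control cells received a control shRNA (labelled negative control), and the other groups received shRNAs labelled as knockdowns of Sox2, of Hnrnpk or of Cdk9, so that every group, control included, had been infected. Sox2 encodes a pluripotency transcription factor, Hnrnpk an RNA-binding protein, and Cdk9 the kinase of the elongation factor P-TEFb. The labels do not say which shRNA each library received, and all libraries come from 1 cell line. The question for these genes was whether the transcripts of the H3K4 methylation machinery changed when SOX2, hnRNPK or CDK9 was lowered.

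COMPASS complexes share a core of WDR5, RBBP5, ASH2L and DPY30 (the WRAD module), which holds a catalytic SET-domain subunit and raises its activity. The catalytic subunits come in pairs: SETD1A and SETD1B (genes Setd1a and Setd1b) are linked to broad H3K4 trimethylation at promoters, MLL1 and MLL2 (Kmt2a and Kmt2b) to selected promoters including developmental genes, and MLL3 and MLL4 (Kmt2c and Kmt2d) to H3K4 monomethylation at enhancers. In ESCs, ASH2L, WDR5 and DPY30 are known for their roles in self-renewal or in the activation of differentiation genes.

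The total was 16709201 to 17719366 counts a library, and levels are given as CPM, the usual counts scaled to a common library size, with TMM factors. Sox2 itself was at 412 and 530.3 CPM in control and 320.4 and 284 in Sox2-KD (log2FC -0.64, SE 0.16, adjusted p = 0.0479, by edgeR's quasi-likelihood test). This call rested on single libraries: Sox2 passed in 2 of the 8 fits that each left out a library and in 7 of all 18 alternative fits, with a log2FC of -0.83 to -0.46 and an adjusted p of up to 0.311. Cdk9 was at 109 and 129 CPM in control and 73.1 and 53.2 in Cdk9-KD (log2FC -0.91, SE 0.18, adjusted p = 0.0985, which missed the threshold). Hnrnpk was at 1094 and 1131 CPM in control and 697 and 1144 in the group labelled hnRNPK-KD, so that the second of these libraries did not show a lower Hnrnpk level, and the group is called by its label throughout. The 8 ESC markers examined had counts in every library and summed to 3593 to 5148 CPM over all libraries. In Sox2-KD, 4 of 6 tested trophectoderm markers, 2 of 5 primitive endoderm markers, 1 of 4 fibroblast markers and 1 of 8 ESC markers were higher by edgeR's quasi-likelihood test, beside 2.63% of all tested genes, and none was lower. Their summed levels are given beside the Sox2-KD results.

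Ash2l (ENSMUSG00000031575.18) lies on the minus strand at chr8:25815996-25847694 (mm10). The study examined its splice forms by RT-PCR, as it did those of Eif4a2. The Ash2l primers are shown to mark what a gene-level count can and cannot separate. The first pair flanks the region amplified to compare splice forms, and the second gives the gene-derived ends of the cDNA cloned as Ash2l-b, with the start codon and the complement of the stop codon in their first bases:
splice-form forward primer, chr8:25840049-25840075, minus strand: ggatgcaaacttggttgatgtaagtgg
splice-form reverse primer, chr8:25834985-25835010, plus strand: ggatgttcatcctgtgttcgagactg
Ash2l-b forward end, chr8:25839844-25839861, minus strand: atggatacccaggcgggc
Ash2l-b reverse end, chr8:25817401-25817421, plus strand: ttagggttcccagggtggact
All 4 sequences matched exactly in 7 of the 11 Ash2l transcripts of GENCODE vM21 (5 protein-coding, 2 subject to nonsense-mediated decay), and the splice-form pair bracketed 369 bases in each of the 7. In ENSMUST00000068892.14 these primers lie in exons 2 and 5 of 16. These 7 annotated forms therefore did not differ in length between these primers. They differed at the start of the reading frame and further downstream. The coding sequence of ENSMUST00000068892.14 starts at position 25840757, in the first exon, and is 1869 bases long. That of the other 4 protein-coding transcripts starts at 25839861, the first base of the Ash2l-b forward end. ENSMUST00000110609.7, 1 of these 4, has a coding sequence of 1602 bases. ENSMUST00000110608.2, another of them, lacks the exon at 25818546-25818644 and has 1503 coding bases. The 2 transcripts subject to nonsense-mediated decay each skip an internal exon that ENSMUST00000068892.14 has. Every value of Ash2l below pools all these forms.

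The level of the shared core was far above that of the catalytic genes in every group. Per kilobase (kb) of annotated exons, which allows levels to be compared between genes, Wdr5 was highest in control at 127 ± 9.72 CPM per kb (SD, n = 2, as for all means here). Wdr5 encodes the WD40 protein that docks the catalytic subunits on the core. Dpy30, whose small product binds the ASH2L C-terminus, followed at 106 ± 10.04, Ash2l, whose product stimulates the SET domain together with RBBP5, at 53.7 ± 1.97, and Rbbp5, which encodes that partner of ASH2L, at 38.8 ± 0.908. Among the catalytic genes, Kmt2b (MLL2) was highest at 16.4 ± 0.0354 CPM per kb, and Setd1b was lowest at 2.23 ± 0.257. Between them stood Kmt2a (MLL1) at 7.83 ± 0.0614, Kmt2d (MLL4) at 6.92 ± 0.0348, Setd1a at 6.58 ± 0.635 and Kmt2c (MLL3) at 4.86 ± 0.111. The control libraries of Kmt2d and Setd1a overlapped, and no other neighbours in this order did.

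The place of Ash2l in the order rested on the length used. Its annotated exons, those of retained-intron transcripts included, span 8969 bases, whereas its longest protein-coding transcript has 3307 bases. Per kb of the longest protein-coding transcript, Ash2l was at 146 ± 5.35 CPM per kb in control, beside Wdr5 at 158 ± 12.1 and Dpy30 at 153 ± 14.6, and the control libraries of neighbours among these 3 genes overlapped. On this scale the mean of Ash2l was above the others in Sox2-KD and in hnRNPK-KD. In Sox2-KD it was 120.0 ± 12.7 against 95.4 ± 8.47 for Wdr5 and 89.9 ± 6.67 for Dpy30. In hnRNPK-KD it was 167 ± 9.05 against 152 ± 10.4 and 123 ± 6.08. The level of Setd1a is uncertain, since 51.85% of its exon bases are shared with Gm49388, a gene model on the same strand that had 0 counts in every library, and how shared reads were assigned is not stated. Processed copies of Dpy30, Rbbp5 and Kmt2d (Gm2059, Gm11977 and Gm47184) had at most 0.466 CPM in any library.

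**Figure D1:**
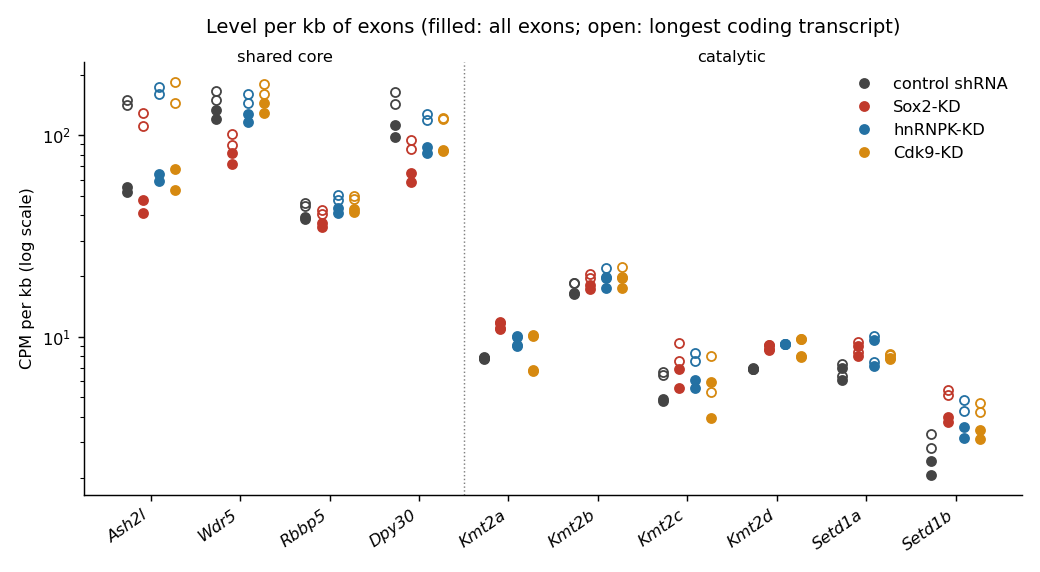
Level of each COMPASS gene in CPM per kb (log axis) in the 8 libraries, coloured by group. Filled points use all annotated exons and open points the longest protein-coding transcript. The 4 core genes stand above the 6 catalytic genes in every library, and Ash2l is the gene whose level moves most with the length used.

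In Sox2-KD, genes of the core were lower and a catalytic gene was higher. Wdr5 and Dpy30 fell to 60.4% and 58.6% of their control means, and Setd1b rose to 174%. Thus 3 of the 10 genes were differentially expressed (DE: an absolute log2FC over 0.6, with adjusted p under 0.05), beside 4.32% of all 16504 tested genes. Of the members 1 was higher, beside 2.63% of all genes, and 2 were lower, beside 1.69%. By the unadjusted p under 0.05 there were 5, beside 19.3%, the other 2 being Kmt2a and Kmt2d. The counts are of bulk RNA, in which fewer cells of a type and less RNA per cell cannot be told apart.

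In control, the CPM of Wdr5 was 432 and 481, and it was 259 and 293 in Sox2-KD. Both Sox2-KD libraries were below every other library of the study. The difference was a log2FC of -0.73 (SE 0.14, adjusted p = 0.0209). Dpy30 was at 113 and 129 CPM in control and 74.7 and 67.2 in Sox2-KD, again the lowest values of the 8 libraries, with a log2FC of -0.77 (SE 0.14, adjusted p = 0.0158). Setd1b, the scarcest catalytic gene, was at 24.8 and 29.2 CPM in control, the lowest values of the 8 libraries, and at 48.2 and 45.5 in Sox2-KD, the highest. The difference was a log2FC of 0.80 (SE 0.16, adjusted p = 0.0247). The counts behind these values were 4705 to 8907 a library for Wdr5, 1178 to 2254 for Dpy30 and 440 to 877 for Setd1b. These 3 calls needed all 4 libraries: leaving out any one control or Sox2-KD library kept the direction of each gene and ended the calls. Such a fit leaves a group with a lone library, and the DE count over all genes fell as well. Across those 4 fits the log2FC of Wdr5 was -0.82 to -0.65, that of Dpy30 -0.88 to -0.68 and that of Setd1b 0.67 to 0.91, and the adjusted p of the 3 genes was 0.0527 to 0.197. With no filter on low counts the Setd1b call was also lost (log2FC 0.76, adjusted p = 0.054).

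The promoters of the genes that fell are given because both genes fell in Sox2-KD. They were read from the RefSeq promoter table (GRCm38.p6), which held 7 of the 10 members and not Ash2l, Kmt2b or Setd1b. Printed are up to 250 bases before the start, without bases of annotated exons, with CpG dinucleotides in capitals:
Wdr5, chr2:27514897-27515146, plus strand: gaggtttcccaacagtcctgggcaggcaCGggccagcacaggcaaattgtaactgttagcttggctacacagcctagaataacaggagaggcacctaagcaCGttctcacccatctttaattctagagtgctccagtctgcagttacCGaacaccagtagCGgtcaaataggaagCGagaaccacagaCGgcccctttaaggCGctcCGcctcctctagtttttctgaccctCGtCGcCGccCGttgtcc
Dpy30, chr17:74316464-74316683, minus strand: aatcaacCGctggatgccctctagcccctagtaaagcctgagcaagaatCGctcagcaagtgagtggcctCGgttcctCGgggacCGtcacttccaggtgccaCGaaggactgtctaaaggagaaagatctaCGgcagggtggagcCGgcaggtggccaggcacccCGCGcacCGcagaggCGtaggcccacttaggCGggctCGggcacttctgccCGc
For Dpy30 the table lists 4 starts, of which 3 lie within 500 bases of each other. The most upstream of those 3 is shown. Over 300 bases (250 before the start and 50 after), the Wdr5 promoter had 22 CpGs and a GC content of 59.0%, and this Dpy30 promoter had 30 CpGs and 66.3%. The medians over all 32851 promoters were 7 CpGs and 52.7%. The letters CATTGT, a form of the SOX core motif, on either strand, were in neither of them and in 12.6% of all promoters. Of the 7 members in the table, 1 held them (Rbbp5). Only this exact form of the motif was counted, and binding of SOX2 to these promoters was not tested.

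**Figure D2:**
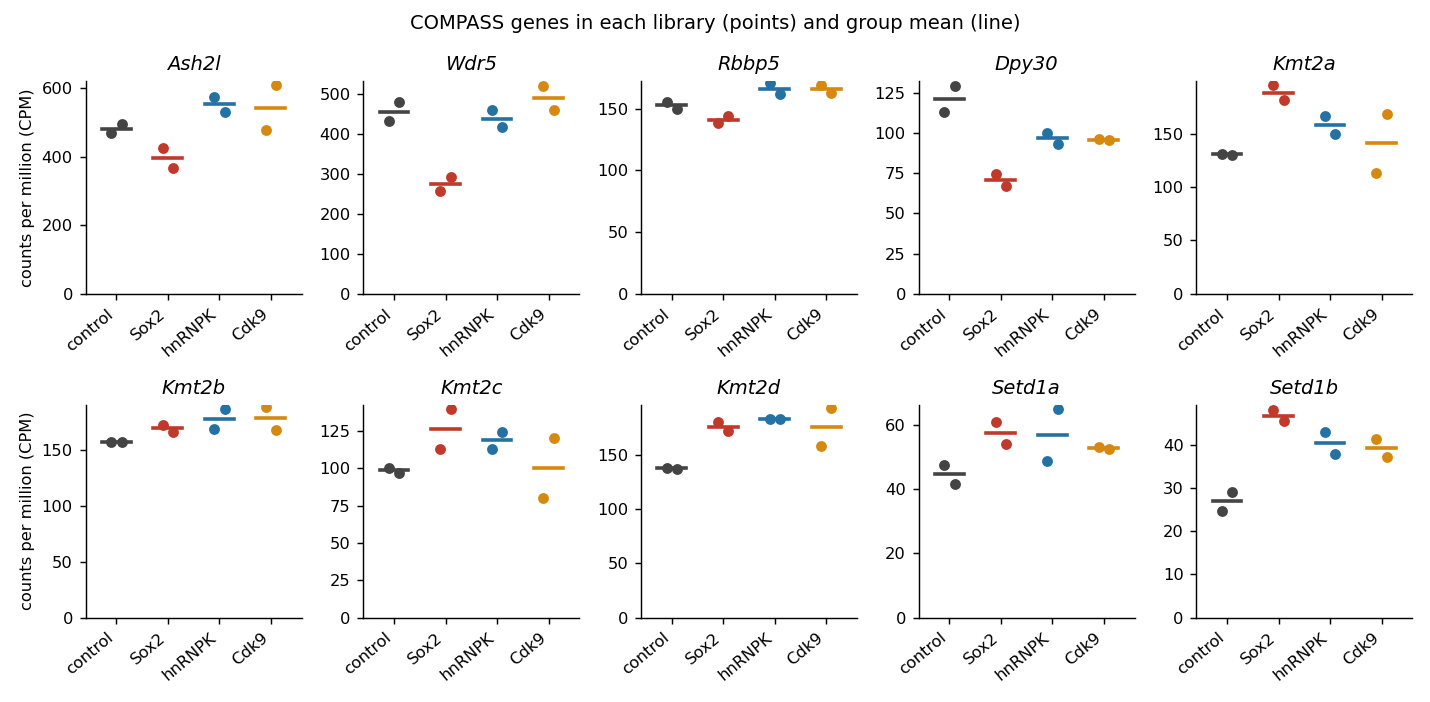
CPM of the 10 COMPASS genes in each library (points) with the group mean (line); every axis starts at 0. The Sox2-KD libraries are lowest for Wdr5 and Dpy30 and highest for Setd1b, and the Cdk9-KD libraries are far apart for Kmt2a, Kmt2c and Ash2l.

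Ash2l and Rbbp5 completed the core in Sox2-KD without passing the test. Ash2l was at 469.5 and 495 CPM in control and 427 and 367 in Sox2-KD, a log2FC of -0.28 (95% interval -0.63 to 0.07), adjusted p = 0.371. Rbbp5 was at 155 and 150.1 CPM in control and 138 and 144 in Sox2-KD, a log2FC of -0.11 (95% interval -0.40 to 0.17). The libraries did not overlap for either gene. In all, 4 of 4 core genes had both Sox2-KD libraries below both control libraries, beside 25.2% of all tested genes. The median log2FC of the core was -0.50, and that of all tested genes was 0.02.

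The catalytic genes were on the other side. For 6 of 6, both Sox2-KD libraries were above both control libraries, beside 28.2% of all tested genes, and the median log2FC was 0.36. Kmt2a was at 131 and 129.9 CPM in control and 195 and 181 in Sox2-KD (log2FC 0.53, 95% interval 0.13 to 0.93, adjusted p = 0.136). Kmt2d was at 138 and 137 CPM in control and 181 and 172 in Sox2-KD (log2FC 0.36, 95% interval 0.04 to 0.67, adjusted p = 0.2). These are the MLL1 and MLL4 genes, and neither passed the adjusted threshold. Kmt2c (MLL3) was at 100.1 and 96.9 CPM in control and 113 and 139.6 in Sox2-KD, a log2FC of 0.36 (95% interval -0.07 to 0.79). Kmt2b (MLL2) was at 157 and 157 CPM in control and 173 and 166 in Sox2-KD, a log2FC of 0.11 (95% interval -0.19 to 0.41). Setd1a was at 47.8 and 41.6 CPM in control and 61.2 and 54.2 in Sox2-KD, a log2FC of 0.37 (95% interval -0.02 to 0.75). The intervals of these 3 genes included 0.

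Transcript length moved with this split, and base composition did so in part. The longest protein-coding transcripts of the catalytic genes have 6487 to 19823 bases and those of the core 789 to 3385, with no overlap. GC content was taken from the longest annotated transcript of any type. It was 47.6% to 59.1% for the catalytic genes and 42.3% to 51.5% for the core, so that these ranges overlapped. For Ash2l that transcript is a retained-intron form of 3702 bases, with a GC content of 44.0%. In Sox2-KD, the 1495 tested protein-coding genes of at least 6487 bases had a median log2FC of 0.08, with 57.3% above 0, and the 7140 genes between 789 and 3385 bases a median of -0.01. Across 13522 protein-coding genes, which are not independent replicates, the log2FC had a Spearman correlation of 0.06 with length and 0.19 with GC content. In fits with the length trend alone removed (added after the data were seen), Wdr5, Dpy30 and Setd1b kept their calls, Setd1b with a log2FC of 0.70 (adjusted p = 0.0478). With both trends removed (also added then), the log2FC of Wdr5 was -0.77 (adjusted p = 0.00749), that of Dpy30 -0.69 (adjusted p = 0.0189) and that of Setd1b 0.56 (adjusted p = 0.0698), which ended the Setd1b call. In the same fit the log2FC was 0.37 for Kmt2a, 0.20 for Kmt2c, 0.18 for Setd1a, 0.04 for Kmt2d and -0.13 for Kmt2b, and it was -0.26 for Ash2l and -0.13 for Rbbp5. Both trends used the length and GC content of the longest annotated transcript of any type. The Ash2l value therefore rests on the retained-intron form.

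Markers of other lineages also differed in these libraries. The 8 trophectoderm markers summed to 179 and 313 CPM in Sox2-KD and to 63.4 to 122 in the other 6 libraries, with Elf5 at 0 counts in Sox2-KD replicate 1. The 7 primitive endoderm markers summed to 43.1 and 62.5 CPM in Sox2-KD and to 2.97 to 5.96 elsewhere, with Foxa2 at 0 in Sox2-KD replicate 2. The ESC markers summed to 3593 and 4216 CPM in Sox2-KD and to 4072 to 5148 elsewhere, and the 7 fibroblast markers to 4.62 to 5.27 and 2.25 to 6.19. The part of other cell types in the Wdr5, Dpy30 and Setd1b differences was not tested.

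Summed per kb of exons, the core was at 310.4 and 339.9 CPM per kb in control and 219.7 and 218 in Sox2-KD, 323 and 298 in hnRNPK-KD and 325 and 321 in Cdk9-KD. The Sox2-KD libraries were below the other 6. The catalytic sum was 45.2 and 44.4 in control, 57.3 and 55.5 in Sox2-KD, 53.0 and 56.5 in hnRNPK-KD and 49.6 and 54.1 in Cdk9-KD, with both control libraries lowest. The core held 87.3 and 88.5 percent of the summed level of all 10 genes in control and 79.3 and 79.7 percent in Sox2-KD, against 85.9 and 84.1 in hnRNPK-KD and 86.8 and 85.6 in Cdk9-KD. Wdr5 and Dpy30 made up most of the core sum. The sums and shares were not tested.

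**Figure D3:**
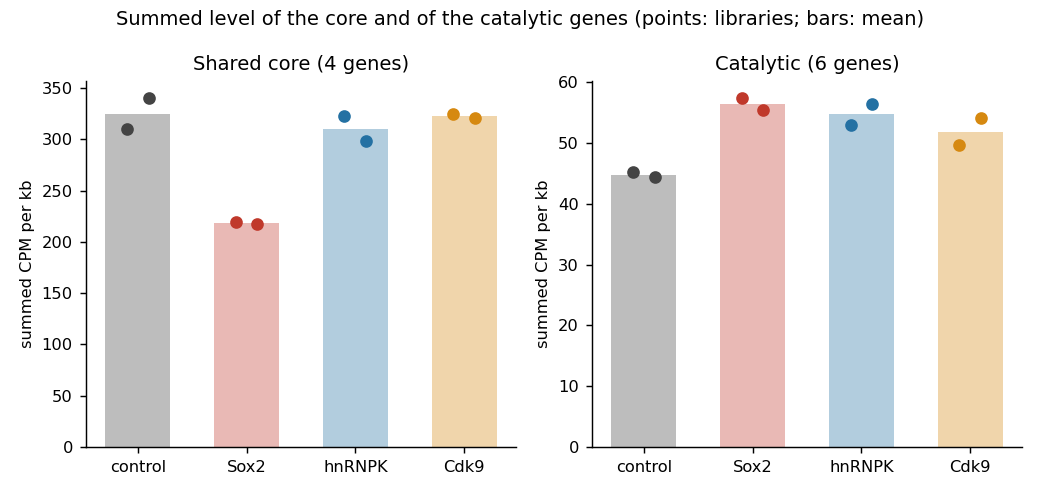
Summed level, in CPM per kb of annotated exons, of the 4 core genes (left) and the 6 catalytic genes (right), with points for libraries and bars for group means; both axes start at 0. The core is lowest in Sox2-KD, and the catalytic sum is lowest in control.

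The ratios within the catalytic pairs were not tested. That of Kmt2a to Kmt2b was highest in Sox2-KD. The log2 ratio of their levels per kb was -1.06 and -1.07 in control, -0.62 and -0.67 in Sox2-KD, -0.81 and -1.12 in hnRNPK-KD and -1.53 and -0.79 in Cdk9-KD. The Sox2-KD libraries had the highest ratios of the 8, and the libraries of hnRNPK-KD and Cdk9-KD lay on both sides of control. The log2 ratio of Kmt2c to Kmt2d was -0.49 and -0.53 in control and -0.71 and -0.33 in Sox2-KD, so that control lay between the Sox2-KD libraries. It was -0.72 and -0.59 in hnRNPK-KD and -1.01 and -0.71 in Cdk9-KD, all below control. The log2 ratio of Setd1a to Setd1b was 1.78 and 1.34 in control, 1.17 and 1.08 in Sox2-KD, 1.01 and 1.61 in hnRNPK-KD and 1.19 and 1.32 in Cdk9-KD.

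No member was DE in the libraries labelled hnRNPK-KD. The count was 0 of 10 by edgeR's quasi-likelihood test, beside 0% of all tested genes. DESeq2 and the likelihood ratio test also called 0 of 10, beside 83 and 87 of all 16504 tested genes. By the unadjusted p under 0.05 there were 3 (Setd1b, Kmt2d and Dpy30), beside 8.03%. Setd1b was at 43.0 and 38.0 CPM, both above the control libraries (log2FC 0.59, SE 0.16, adjusted p = 0.438). Kmt2d was at 183 and 183 CPM against 138 and 137 in control (log2FC 0.41, SE 0.14, adjusted p = 0.515). Dpy30 was at 100.1 and 93.4 CPM, both below control (log2FC -0.32, SE 0.14, adjusted p = 0.602).

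Ash2l was at 574 and 532 CPM in hnRNPK-KD, above both control libraries, a log2FC of 0.20 (95% interval -0.15 to 0.54). The libraries of 8 members, all 6 catalytic genes among them, lay above control without overlap, beside 20.4% of all tested genes, and those of 1 (Dpy30) below, beside 18.7%. The catalytic genes are long, and length moved with the log2FC here too. Of the 1495 tested protein-coding genes of at least 6487 bases, 58.9% were above 0, with a median of 0.06. Across 13522 protein-coding genes the Spearman correlation of the log2FC was 0.09 with length and -0.09 with GC content. The median log2FC of the 10 genes was 0.23, and that of all tested genes 0.02. Among the other catalytic genes, Kmt2a was at 166 and 149.7 CPM (log2FC 0.27), Kmt2c at 113 and 124 (0.27), Kmt2b at 168 and 187 (0.18) and Setd1a at 48.7 and 65.2 (0.35). None of these 4 passed the test. Rbbp5 was at 171 and 162 CPM (log2FC 0.12). Wdr5 was at 460.4 and 418 CPM and overlapped control (log2FC -0.06, 95% interval -0.37 to 0.26).

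In Cdk9-KD, 0 of the 10 genes were DE by edgeR's quasi-likelihood test, beside 0.139% of all tested genes. DESeq2 and the likelihood ratio test also called 0 of 10, beside 222 and 279 of all 16504 tested genes. The unadjusted p was under 0.05 for 3 genes, beside 10.4%, again Setd1b, Kmt2d and Dpy30. All comparisons with control used the same 2 control libraries, so that the same names in each are not independent. Setd1b was at 41.4 and 37.3 CPM (log2FC 0.54, SE 0.16, adjusted p = 0.296), Kmt2d at 159 and 194 (log2FC 0.35, SE 0.14, adjusted p = 0.426) and Dpy30 at 96.4 and 95.3 (log2FC -0.34, SE 0.14, adjusted p = 0.45). Thus the control libraries had the lowest Setd1b and Kmt2d and the highest Dpy30 of the study. The libraries of 5 members lay above control without overlap, beside 21.2% of all genes, and those of 1 below, beside 18%.

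The Cdk9-KD libraries differed from each other for several members. Kmt2a was at 113 and 169 CPM, on both sides of control, and Kmt2c at 80.0 and 120.3 against 100.1 and 96.9 in control. Ash2l was at 478 and 609 CPM, a log2FC of 0.17 (95% interval -0.17 to 0.52). Cdk9-KD replicate 2 was the higher for each of these 3 genes. Without it the log2FC of Kmt2a was -0.21 and that of Kmt2c -0.30, against 0.11 and 0.02 with it. Wdr5, at 520.3 and 462 CPM, had a log2FC of 0.10 (95% interval -0.21 to 0.42). Rbbp5 at 169 and 163 CPM, Kmt2b at 189 and 168 and Setd1a at 53.1 and 52.6 lay above control in both libraries, with log2FCs of 0.12, 0.18 and 0.24, and did not pass the test.

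**Figure D4:**
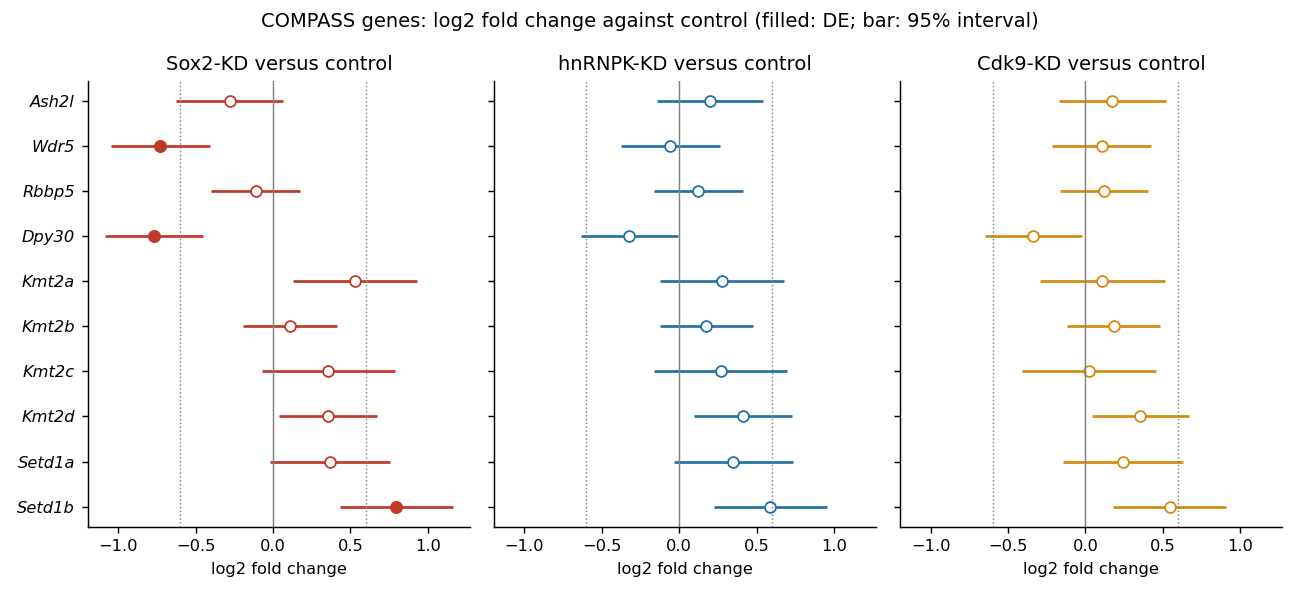
Log2 fold change of the 10 COMPASS genes against control in the 3 knockdowns, with 95% intervals; filled points were DE and dotted lines mark the fold limit of 0.6 on either side. Only Wdr5, Dpy30 and Setd1b in Sox2-KD are filled.

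Direct comparisons between knockdowns tested whether a member differed among them. Wdr5 was lower in Sox2-KD than in hnRNPK-KD (log2FC -0.67, SE 0.14, adjusted p = 0.0256) and than in Cdk9-KD (log2FC -0.83, SE 0.14, adjusted p = 0.00769). It was the only DE member in either comparison, 1 of 10, beside 5.9% and 7.33% of all tested genes. Between Cdk9-KD and hnRNPK-KD no member was DE, beside 0% of all genes. DESeq2 and the likelihood ratio test also called 0 members there, beside 56 and 67 of all 16504 tested genes. None had an unadjusted p under 0.05, a rule for which the share over all genes was not counted in this comparison. Without either replicate of Sox2-KD or hnRNPK-KD, and with scaling by library totals, Wdr5 was not called between these groups, with a log2FC of -0.77 to -0.56. Without Sox2-KD replicate 1 it was not called against Cdk9-KD (log2FC -0.75, adjusted p = 0.0529), and without Cdk9-KD replicate 2 Kmt2a was called in addition (log2FC 0.73, adjusted p = 0.0438).

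Ash2l was lowest in the Sox2-KD libraries, and the 3 highest values were those of Cdk9-KD replicate 2 and of both hnRNPK-KD libraries. Its log2FC was -0.48 (95% interval -0.82 to -0.13) in Sox2-KD against hnRNPK-KD (adjusted p = 0.104) and -0.45 (95% interval -0.80 to -0.11) against Cdk9-KD (adjusted p = 0.113). Neither passed the threshold. Dpy30, called against control, was not called against the other knockdowns: its log2FC was -0.45 (95% interval -0.76 to -0.13) against hnRNPK-KD and -0.43 (95% interval -0.75 to -0.12) against Cdk9-KD. For Setd1b these were 0.21 (95% interval -0.15 to 0.57) and 0.25 (95% interval -0.11 to 0.61). In the test for any difference among the 4 groups, 2 of 10 members passed an adjusted p under 0.05, beside 6.06% of all tested genes: Wdr5 (adjusted p = 0.0227) and Dpy30 (adjusted p = 0.0414). Setd1b had 0.0606 and Ash2l 0.222.

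The genes whose levels followed Ash2l most closely over the 8 libraries were Snx5 (Pearson r = 0.980), Zfp949 (0.979), Hnrnpul2 (0.978), Dcp2 (0.973) and Dbf4 (0.973), out of 9710 genes with an average log2 CPM over 3. Those furthest from it were Cstb (-0.987) and Parp12 (-0.978). These values were picked as extremes of many genes over libraries that fall into 4 groups, and they are a description without a test. Of the members, Rbbp5 was the closest to Ash2l (r = 0.742, rank 1067), followed by Wdr5 (0.703) and Dpy30 (0.572). Among the catalytic genes the highest was Kmt2d (0.285) and the lowest Setd1b (-0.216). The order depended on the measure: by Spearman's rho, Kmt2d (0.571) stood above Wdr5 (0.524) and Dpy30 (0.381), and below Rbbp5 (0.738).

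The wider list held 18 genes: partners that distinguish the complexes (menin, LEDGF, PTIP, NCOA6, UTX, CFP1, WDR82, HCF1 and others), H3K4 demethylases and other SET genes. Of these, 17 were tested. Pagr1a was not, having 1 count in all, and 98.7% of its exon bases are shared with Gm42742. In each of the 3 comparisons with control 0 of the 17 were DE by edgeR's quasi-likelihood test, beside 4.32% of all tested genes in Sox2-KD, 0% in hnRNPK-KD and 0.139% in Cdk9-KD. The unadjusted p was under 0.05 for 3 in Sox2-KD, 2 in hnRNPK-KD and 1 in Cdk9-KD, beside 19.3%, 8.03% and 10.4% of all tested genes. DESeq2 called 1 of the 17 (Kdm5b) in Sox2-KD, beside 1029 of all 16504 tested genes. It called 0 in hnRNPK-KD and in Cdk9-KD, beside 83 and 222 of all tested genes. The median log2FC of the 17 was 0.08 in Sox2-KD, 0.17 in hnRNPK-KD and 0.03 in Cdk9-KD, and that of all tested genes was 0.02 in each.

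Kdm5b, which encodes a demethylase of trimethylated H3K4, was at 487 and 664 CPM in control and 253 and 386 in Sox2-KD. The Sox2-KD libraries were the lowest of the 8 (log2FC -0.85, SE 0.21, adjusted p = 0.0506). It missed the threshold narrowly and passed it in 10 of 18 alternative fits. Paxip1, whose product PTIP belongs to the MLL3 and MLL4 complexes, was at 149 and 167 CPM in control and 220.2 and 234 in Sox2-KD, the highest of the study, with a log2FC of 0.52 (SE 0.13, adjusted p = 0.0551). Its fold was under the limit. Setd7, which encodes an H3K4 monomethyltransferase that does not use the core, was at 11.04 and 12.3 CPM in control and 16.5 and 20.9 in Sox2-KD (log2FC 0.68, SE 0.28, adjusted p = 0.215).

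Setd7 was on the other side of control in the remaining knockdowns, at 7.50 and 4.25 CPM in hnRNPK-KD (log2FC -0.99, SE 0.29, adjusted p = 0.457) and 6.89 and 6.56 in Cdk9-KD (log2FC -0.79, SE 0.29, adjusted p = 0.373). It had 73 to 366 counts a library, and none of the 3 comparisons with control passed. Tested directly, Setd7 was higher in Sox2-KD than in hnRNPK-KD (log2FC 1.67, SE 0.29, adjusted p = 0.0112) and than in Cdk9-KD (log2FC 1.47, SE 0.29, adjusted p = 0.0125). Kdm5b was lower in Sox2-KD than in Cdk9-KD (log2FC -0.82, SE 0.21, adjusted p = 0.0429), with the libraries of Cdk9-KD at 604 and 522 CPM. Cxxc1, which encodes the CpG-binding subunit CFP1 of the SETD1 complexes, was at 58.0 and 77.3 CPM in hnRNPK-KD and 66.4 and 58.5 in Cdk9-KD against 52.7 and 41.8 in control, with log2FCs of 0.52 (95% interval 0.11 to 0.93) and 0.40 (95% interval -0.01 to 0.82). Kdm6a (UTX), named for hnRNPK-KD, had a log2FC of 0.22 (95% interval -0.09 to 0.53), and Men1 (menin), named for Cdk9-KD, one of 0.28 (95% interval -0.11 to 0.66). None of these 3 genes passed the threshold.

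**Figure D5:**
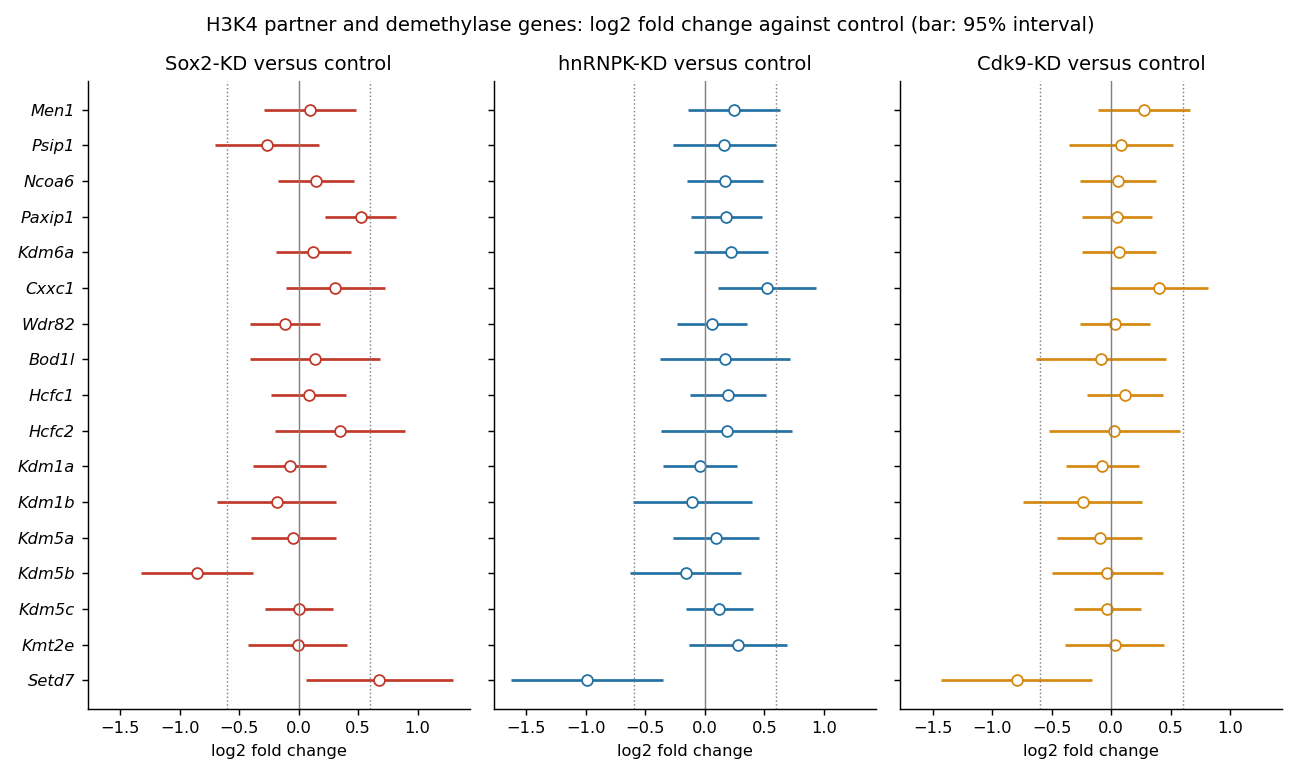
Log2 fold change against control of the 17 tested partner, demethylase and other H3K4 genes in the 3 knockdowns, with 95% intervals and dotted lines at the fold limit of 0.6 on either side. No point is filled, since none was DE; Kdm5b lies furthest below 0 in Sox2-KD and Setd7 furthest below 0 in the other knockdowns.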

How the data were processed

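Gene-level RNA-seq counts of 8 E14 libraries were used, 2 for each of 4 groups taken from the sample labels. Per the study's methods and the submitters' notes, the authors trimmed reads with Trimmomatic, aligned them with STAR to mm10 with GENCODE vM23 models, and deposited raw counts per gene. The submitters' processing notes name FastQC, STAR 2.7.9a and featureCounts 2.0.1. The handling of strand and of multiply mapped reads is not given in the sources used here.

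Totals were 16709201 to 17719366 counts a library. Gene IDs were matched to GENCODE vM21 (GRCm38), which named 55154 of 55335 genes and left 181 without a symbol. Genes were kept by filterByExpr (minimum count 10, minimum total 15), libraries were scaled by TMM, and all 4 groups were fitted together with edgeR's quasi-likelihood test (edgeR 4.0.16, limma 3.58.1, R 4.3.3). P-values were adjusted by Benjamini-Hochberg over all 16504 tested genes, and the SE is the absolute log2FC over the square root of F. As in the study's methods, genes had to pass an absolute log2FC of 0.6 and an adjusted p of 0.05. Levels per kb divide CPM by the union of annotated exons. Tables and plots used Python 3.11.15, pandas 2.3.3 and matplotlib 3.10.9.

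The members and gene lists were chosen with earlier results of these data known. Named were the 10 members, the 3 wider-list genes of smallest p in each comparison with control, the 5 highest and 2 lowest genes by Pearson r with Ash2l of log2(CPM + 1), and the targeted genes. Pagr1a, and gene models that share sequence with a member, were named after their values were seen. On simulated data of the Sox2-KD comparison (16110 genes tested), 72% of 4-fold and 47% of 2-fold changes were recovered, with 8 false calls. Among genes with an average log2 CPM over 3, as every member has, 73% of 2-fold changes were recovered. Alternatives were DESeq2 1.42.0, its size factors, library totals, other filters, only the 4 libraries compared, a replicate block, the likelihood ratio test, no fold limit, another gene length and leaving out each library. Removal of trends with length and GC, and the coding transcript length, were added after the data were seen. The study's methods call the samples biological duplicates, and no source names separate cultures, so p-values measure the spread between these samples. Replicates differed by more than sampling noise (chi-square per gene 16.4 to 28.9).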

Additional observations from a re-analysis of the deposited data

Results flagged for a closer look

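With 2 libraries a group, no library could be tested as standing apart within its group. In 5 cases a gene differed between 2 knockdowns in a direct test of their difference (edgeR's quasi-likelihood test, adjusted over all genes). Between Sox2-KD and hnRNPK-KD these were 1 of 10 members and 1 of 17 wider-list genes, beside 5.9% of all tested genes. Between Sox2-KD and Cdk9-KD they were 1 of 10 and 2 of 17, beside 7.33%. Wdr5 was lower in Sox2-KD than in hnRNPK-KD, with a log2FC of -0.67, and the call was lost with library totals and without either library of these groups. Wdr5 was also lower in Sox2-KD than in Cdk9-KD, with a log2FC of -0.83, and this call was lost without Sox2-KD replicate 1 (adjusted p = 0.0529). Setd7 was higher in Sox2-KD than in hnRNPK-KD, with a log2FC of 1.67, and the call was lost without hnRNPK-KD replicate 2 (adjusted p = 0.0838) or Sox2-KD replicate 2 (adjusted p = 0.0989). Setd7 was higher in Sox2-KD than in Cdk9-KD, with a log2FC of 1.47, and the call was lost without Cdk9-KD replicate 2 (adjusted p = 0.0737) or Sox2-KD replicate 2 (adjusted p = 0.103). Kdm5b was lower in Sox2-KD than in Cdk9-KD, with a log2FC of -0.82. That call was lost without either Cdk9-KD library, either hnRNPK-KD library or Sox2-KD replicate 1, where the adjusted p was 0.0543 to 0.204, and with library totals (adjusted p = 0.0589).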

How the results depend on the processing

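The 3 members DE in Sox2-KD against control became 0 without any one control or Sox2-KD library (range 0 to 3 over the 8 fits that each leave out a library). Between Sox2-KD and hnRNPK-KD the count of 1 became 0 with library totals, and 0 to 1 when libraries were left out. Library totals also moved the median log2FC of all genes in that comparison from -0.01 to 0.10. Between Sox2-KD and Cdk9-KD the range was 0 to 2. Of the wider list, 1 gene (Kdm5b) in place of 0 was DE in Sox2-KD with DESeq2, DESeq2 size factors, no filter, the likelihood ratio test, the length trend removed and the length and GC trends removed, and 0 to 1 with libraries left out. In the test among the 4 groups, 1 member (Wdr5) in place of 2 passed with no filter or with the length and GC trends removed, and 0 to 2 with libraries left out. In control, the core held 87.9% of the summed level, 90.7% by the longest transcript, 90.9% by the longest protein-coding transcript, and 87.3% to 88.5% with libraries left out.

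Among members that did not pass, the sign of the log2FC changed for Kmt2b in Sox2-KD with the length and GC trends removed (-0.13), and with libraries left out for Wdr5 in hnRNPK-KD (-0.15 to 0.01) and, in Cdk9-KD, for Ash2l (-0.01 to 0.31), Wdr5 (-0.02 to 0.19), Kmt2a (-0.21 to 0.34) and Kmt2c (-0.30 to 0.26). Fits without a library have fewer samples by construction, and a lone library is assumed to vary like the other groups. For the other settings the cause was not tested.

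Deviations of same-numbered libraries from their group means correlated at -0.231 to 0.244, the highest being for control with Sox2-KD. With 2 libraries a group, this cannot show whether replicate numbers pair the samples. With the replicate block, 3 members were DE in Sox2-KD as without it, 1 wider-list gene (Kdm5b) was DE there, 1 member (Wdr5) passed the test among the 4 groups, and the log2FC of Kmt2c in Cdk9-KD was -0.0024.

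Over all genes, the DE counts of 713, 974 and 1210 (Sox2-KD against control, hnRNPK-KD and Cdk9-KD) became 1350, 1690 and 1869 by the likelihood ratio test, and 144 to 840, 90 to 1100 and 337 to 1286 with libraries left out. For hnRNPK-KD against control, 0 became 83 by DESeq2, 87 by the likelihood ratio test, 3 with the length and GC trends removed, and 0 to 1 with libraries left out. For Cdk9-KD against control, 23 became 222, 279, 39 and 0 to 33, and 15 with the replicate block. Between Cdk9-KD and hnRNPK-KD, 0 became 56, 67, 0 and 0 to 6. On depth, the member with the fewest counts, Setd1b, had 440 to 877 a library.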
